A study of Mus musculus with 20 samples.

Results

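The 10 genes described here, Flt3, Dntt, Cd27, Mef2c, Satb1, Notch1, Ikzf1, Lax1, Ccr9 and Cd52, are genes used to follow lymphoid priming, and they were read in RNA of sorted mouse blood stem cells and progenitors. They were chosen by name from knowledge of lymphoid priming with earlier results of these data known, and they are 10 of the 55573 genes in the count tables. All cells came from bone marrow of C57BL/6 mice aged 7 to 9 weeks with no treatment or engineered allele named, and every gate took lineage-negative cells with Sca-1 and c-Kit on the surface (LSK cells). There were 4 groups of 5 libraries: Lepr+ MPP and Lepr- MPP, multipotent progenitors sorted as CD150-CD48- cells with or without leptin receptor protein on the surface, and Lepr+ HSC and Lepr- HSC, haematopoietic stem cells sorted as CD150+CD48- cells in the same manner. Each sample pooled the marrow of 2 mice and yielded 1000 to 8000 cells. Leptin is the hormone by which fat tissue reports energy stores, and the question was what sets apart the cells that carry its receptor.

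Lymphoid priming is the low expression of lymphocyte genes in multipotent cells before they commit to a lineage. It is known to begin in multipotent progenitors that raise the cytokine receptor Flt3, and it brings the template-independent DNA polymerase TdT (the product of Dntt), adhesion receptors and the transcription factors that later direct B and T cell fates. In marrow stem cells these genes are classically low, while megakaryocyte and stem cell genes are high.

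Libraries held 9532993 to 31589794 counts in genes. Slamf1, which encodes the sort antigen CD150, averaged 5.02 ± 3.01 CPM (counts scaled to library size) in Lepr+ MPP, 5.11 ± 3.83 CPM in Lepr- MPP, 41.3 ± 17.7 CPM in Lepr+ HSC and 46.6 ± 13.3 in Lepr- HSC (SD, n = 5 each). The 7 stem cell markers together did not separate the gates: they summed to 648 to 887 CPM in Lepr+ MPP, 426 to 682 in Lepr- MPP, 617 to 838 in Lepr+ HSC and 285 to 539 in Lepr- HSC. One of them, Hlf, rose in Lepr- MPP against Lepr- HSC (log2 fold change 1.42 ± 0.17, edgeR adjusted p = 7.41e-05). The libraries least like the rest of their group were replicates 4 and 5 of Lepr+ MPP and replicate 5 of Lepr+ HSC, with mean correlations of 0.815, 0.858 and 0.837 to their group. The next lowest was 0.872, in Lepr+ HSC replicate 1, so the cut at 3 libraries follows no wide gap. These 3 libraries also held the fewest counts in genes (11061285, 9532993 and 10840418 in the same order), and the part of depth was not tested. Values without them are given for several of the results that rest on them. Of 8 T cell markers, Cd8a had no count in any of the 20 libraries, and the sum of the 8, mostly Lck and Cd4, was 4.81 to 31.3 CPM in Lepr+ MPP, 40.5 to 72.7 in Lepr- MPP, 3.68 to 22.6 in Lepr+ HSC and 1.32 to 18.8 in Lepr- HSC. The sum of 7 B cell markers, mostly Cd79b, was 57.8 to 109 CPM in Lepr+ MPP, 56.8 to 88.1 in Lepr- MPP, 45.3 to 67.2 in Lepr+ HSC and 44.6 to 109 in Lepr- HSC. Rag1, the lymphocyte recombinase, averaged at most 0.445 CPM in any group.

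On GRCm38, the 10 genes lie on 10 chromosomes, and all are protein coding. Flt3 (ENSMUSG00000042817.15) lies at chr5:147330741-147400489 on the minus strand, Dntt (ENSMUSG00000025014.13) at chr19:41029275-41059525 on the plus strand, and Lax1 (ENSMUSG00000051998.14) at chr1:133679091-133690108 on the minus strand. Cd27 (ENSMUSG00000030336.14) lies at chr6:125232622-125237010, Satb1 (ENSMUSG00000023927.15) at chr17:51736187-51833290, Notch1 (ENSMUSG00000026923.15) at chr2:26457903-26516663 and Cd52 (ENSMUSG00000000682.7) at chr4:134082448-134095082, all on the minus strand. Mef2c (ENSMUSG00000005583.16) lies at chr13:83504034-83667080, Ikzf1 (ENSMUSG00000018654.17) at chr11:11685003-11772926 and Ccr9 (ENSMUSG00000029530.16) at chr9:123678439-123784330, all on the plus strand. Reads in bases shared with a neighbour cannot be assigned, because the libraries keep no strand or because the neighbour lies on the same strand. Exons of Ccr9 share 2223 bp with Slc6a20a and other genes, and those of Notch1 1482 bp with a pair of antisense transcripts. Those of Satb1 share 284 bp, those of Cd52 172 bp and those of Cd27 129 bp. Ccr9, Satb1 and Cd27 each have such a neighbour on the same strand.

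Promoter windows are shown for Flt3, Dntt and Lax1. Flt3 and Dntt had the largest fitted differences between progenitors and stem cells among the members called. Lax1 was the 1 member that edgeR, with group as the only term, called by surface leptin receptor in stem cells. That call was lost in 21 of 33 alternative settings. Each window is that of RefSeq (GRCm38.p6), from 250 bases before to 50 bases after the annotated start. It is printed in the direction of transcription, with matches to the E-box letters CANNTG in capitals. E-boxes are the sites of basic helix-loop-helix factors such as E2A, which is required in lymphoid development. The windows are chr5:147400440-147400739 (minus strand) for Flt3, chr19:41029025-41029324 (plus strand) for Dntt and chr1:133690059-133690358 (minus strand) for Lax1.
Flt3: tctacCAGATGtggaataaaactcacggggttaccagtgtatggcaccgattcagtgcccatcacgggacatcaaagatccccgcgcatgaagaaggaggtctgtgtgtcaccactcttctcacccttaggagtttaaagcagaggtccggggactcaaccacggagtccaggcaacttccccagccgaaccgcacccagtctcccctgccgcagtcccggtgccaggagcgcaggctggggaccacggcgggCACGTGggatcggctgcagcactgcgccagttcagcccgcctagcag
Dntt: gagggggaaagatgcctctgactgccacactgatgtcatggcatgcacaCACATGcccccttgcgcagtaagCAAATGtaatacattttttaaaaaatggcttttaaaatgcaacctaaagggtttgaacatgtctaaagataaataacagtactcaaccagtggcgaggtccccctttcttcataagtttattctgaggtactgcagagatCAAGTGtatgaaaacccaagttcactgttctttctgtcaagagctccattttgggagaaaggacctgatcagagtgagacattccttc
Lax1: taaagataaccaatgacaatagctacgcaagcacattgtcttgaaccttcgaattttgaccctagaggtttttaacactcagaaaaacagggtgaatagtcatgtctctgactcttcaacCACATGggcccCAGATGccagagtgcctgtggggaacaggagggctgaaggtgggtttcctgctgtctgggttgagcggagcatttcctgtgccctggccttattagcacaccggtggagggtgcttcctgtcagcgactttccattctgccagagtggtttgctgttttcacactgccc
The letters matched at 2 positions in the Flt3 window, 3 in the Dntt window and 2 in the Lax1 window. The motif reads the same on both strands. It was in 12 of the 17 windows of the 9 members that had one, beside 72.3% of all 32851 promoter windows. The core TGGGAA bound by Ikaros, the product of Ikzf1, was searched on both strands, where its letters TG may also belong to an E-box, and was in 2 of the 17 windows, both of Satb1, beside 25.6% of all windows. A match is only a run of letters and was not measured as a bound site.

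Without surface leptin receptor, progenitors held far more RNA of the lymphoid priming genes than stem cells did. In Lepr- MPP against Lepr- HSC, 7 of the 10 members rose and Mef2c fell at an adjusted p under 0.05 (edgeR's quasi-likelihood test, Benjamini-Hochberg adjustment over 16509 genes), where 1.51% of all genes rose and 1.22% fell. Dntt rose by 7.85 ± 1.22, Flt3 by 4.57 ± 0.74, Satb1 by 3.66 ± 0.95, Cd52 by 3.21 ± 0.68, Notch1 by 2.54 ± 0.42, Lax1 by 2.40 ± 0.32 and Cd27 by 1.59 ± 0.21 on the log2 scale (SE). The median log2 fold change was 2.87 over the members and -0.01 over all genes. For 9 of 10 members the 5 Lepr- MPP libraries did not overlap the 5 Lepr- HSC libraries, 8 above and 1 below, where 3.44% of all genes had a gap above and 2.79% a gap below. In RNA of a sorted population, a smaller number of cells with a transcript and less of it per cell cannot be told apart.

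With surface leptin receptor, the same contrast had 3 members past the threshold, all higher. In Lepr+ MPP against Lepr+ HSC, Flt3 rose by 3.95 ± 0.72, Cd52 by 3.47 ± 0.68 and Cd27 by 1.01 ± 0.20 on the log2 scale (SE; edgeR adjusted p = 0.0149, 0.022 and 0.027), where 0.466% of all genes were called. The median log2 fold change was 2.09 over the members and 0.02 over all genes. The libraries did not overlap for 5 of 10 members, all higher in Lepr+ MPP, where 1.02% of all genes had such a gap. The replicate number was also fitted as a block, since libraries of 1 number were read as coming from 1 pool of mice. With it, Dntt and Notch1 were also called, making 5 where 1.77% of all genes were called. Between the Lepr- groups Ikzf1 was also called, making 9 where 7.5% were. Without the 3 libraries that stand apart from their groups, Flt3 was the only member called between the Lepr+ groups (3.96 ± 0.68, edgeR adjusted p = 0.0142). With the block and without those 3, Flt3, Cd27 and Lax1 were called there, and Dntt, Notch1 and Cd52 were not.

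**Figure D1:**
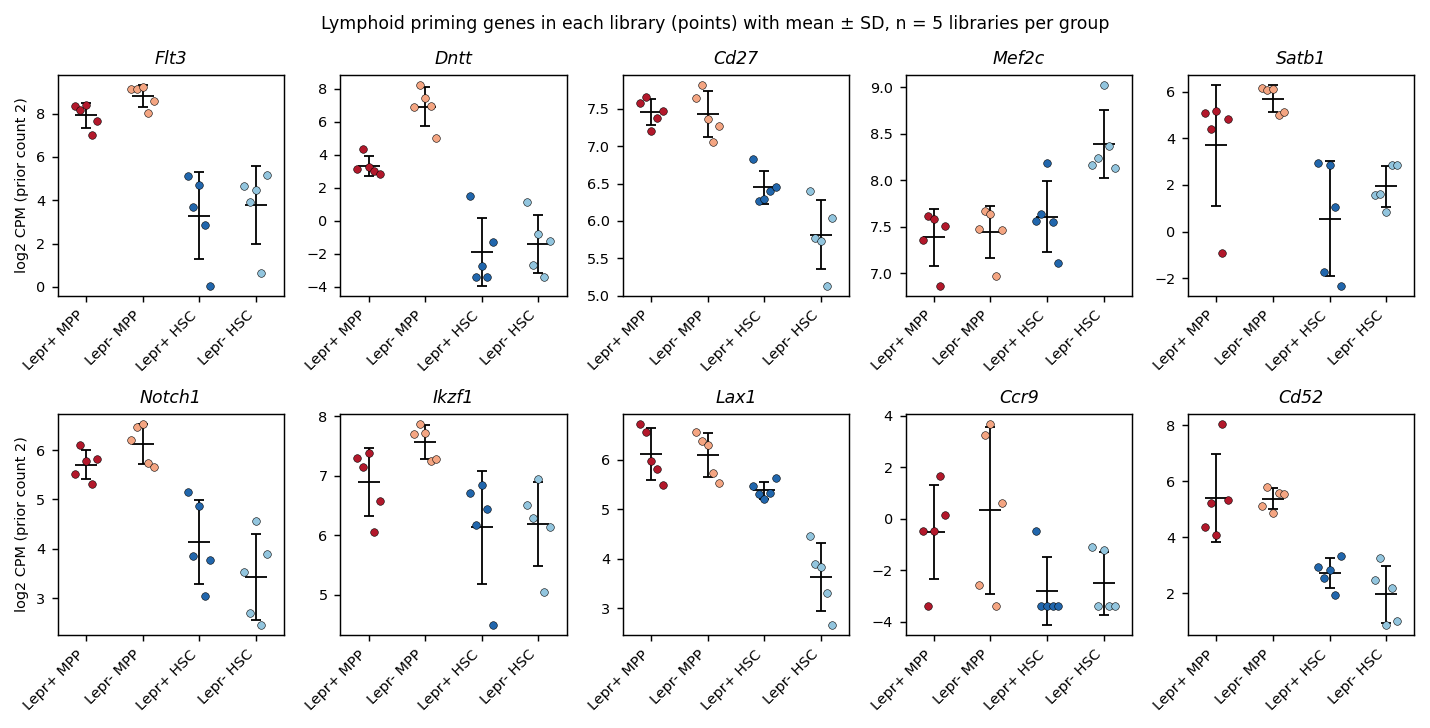
Level of each of the 10 lymphoid priming genes in each library, as log2 CPM with a prior count of 2, for Lepr+ MPP, Lepr- MPP, Lepr+ HSC and Lepr- HSC from left to right; points are libraries, and the bars give mean ± SD (n = 5 each). Flt3, Dntt, Cd27, Notch1 and Cd52 lie higher in every MPP library than in every HSC library, whereas the mean of Mef2c is highest in Lepr- HSC.

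Flt3 is the receptor tyrosine kinase for FLT3 ligand, a cytokine on which early lymphoid and dendritic progenitors depend. It measured 328, 284, 334, 129 and 203 CPM in replicates 1 to 5 of Lepr+ MPP, against 569, 565, 594, 258 and 382 CPM in Lepr- MPP. It measured 35.2, 12.9, 25.97, 7.05 and 0.945 CPM in Lepr+ HSC and 24.9, 15.2, 22.1, 1.46 and 35.7 in Lepr- HSC. The lowest progenitor library, with 129 CPM, was thus above the highest stem cell library. The order of the means was Lepr- MPP (473 ± 147 CPM), Lepr+ MPP (256 ± 88.0), Lepr- HSC (19.9 ± 12.7) and Lepr+ HSC (16.4 ± 14.0). Between Lepr- MPP and Lepr- HSC the fitted ratio was 23.8 (edgeR adjusted p = 0.00112), and between Lepr+ MPP and Lepr+ HSC it was 15.5. This last call was lost in 7 of 33 alternative settings with its direction kept: without Lepr+ HSC replicate 2 (edgeR adjusted p = 0.0594) or 4 (0.0546), with log2 fold changes of 3.87 and 3.76, without replicate number 1 (0.0501), 2 (0.246) or 3 (0.122) in all groups, and in June (0.465) or July libraries alone (0.863). The call between the Lepr- groups was lost in June (edgeR adjusted p = 0.0541) or July libraries alone (0.365).

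Dntt, which encodes TdT, the enzyme that adds untemplated bases at the joints of antigen receptor genes, measured 8.67, 20.8, 9.73, 7.88 and 7.07 CPM in Lepr+ MPP, against 120.0, 307, 175.5, 126 and 32.4 CPM in Lepr- MPP. In Lepr+ HSC it measured 2.73, 0, 0.0580, 0 and 0.315 CPM, and in Lepr- HSC 2.09, 0.0589, 0.479, 0 and 0.329 CPM. No library of one progenitor group overlapped the other, and both lay above all stem cell libraries. The stem cell values rest on 74 and 80 counts summed over Lepr+ HSC and Lepr- HSC, most of them in replicate 1 of each group. The fitted ratio was 231 between Lepr- MPP and Lepr- HSC (adjusted p = 0.000791) and 16.3 between Lepr+ MPP and Lepr+ HSC (adjusted p = 0.113), both from edgeR, and the contrast of the Lepr+ groups reached an adjusted p of 0.0177 with the replicate block. Between the Lepr- groups the log2 fold change ran from 7.18 without replicate number 2 to 9.36 without number 1, and was 9.28 without Lepr- HSC replicate 1 alone; it was 12.37 in July libraries alone and not called (edgeR adjusted p = 0.115). Without Lepr+ HSC replicate 1, which held most of its group's counts, the contrast of the Lepr+ groups was called (log2 fold change 7.18, edgeR adjusted p = 0.00737).

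Cd27, a TNF receptor family member that marks lymphoid-primed progenitors and later costimulates T cells, was detected in every library. It measured 190.3, 201, 147, 166 and 178 CPM in Lepr+ MPP, against 201, 227, 164, 133 and 154 CPM in Lepr- MPP. The stem cell values were 113, 76.6, 78.6, 84.4 and 87.4 CPM in Lepr+ HSC, against 84.4, 54.4, 53.2, 35.02 and 65.5 CPM in Lepr- HSC. All progenitor libraries lay above all stem cell libraries. The ratio was 3 between the Lepr- groups (edgeR adjusted p = 0.000176) and 2.01 between the Lepr+ groups. The call between the Lepr+ groups was lost in 15 of 33 alternative settings with the direction kept in all of them. Among them were the settings without Lepr+ HSC replicate 2, 3, 4 or 5 (edgeR adjusted p 0.0609 to 0.0927), without Lepr+ MPP replicate 1, 2 or 5 (0.0526 to 0.0928) and without the 3 libraries that stand apart (0.111). The means of the progenitor groups were close, 176.5 ± 21.2 CPM in Lepr+ MPP, against 175.7 ± 37.5 in Lepr- MPP.

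Ccr9, the chemokine receptor through which progenitors home to the thymus, was barely detected. It measured 0.619, 0, 0.62, 3.06 and 1.01 CPM in Lepr+ MPP, against 0.0756, 9.55, 12.8, 0 and 1.44 CPM in Lepr- MPP. In the stem cells 1 of 5 Lepr+ HSC libraries had counts, 16 in all, and 2 of 5 Lepr- HSC libraries, 20 in all. High values thus came from replicates 2 and 3 of Lepr- MPP, which hold most of the 680 counts of that group, and the groups overlapped. No comparison of Ccr9 passed the test (edgeR adjusted p = 0.239 between Lepr- MPP and Lepr- HSC, log2 fold change 4.92 ± 1.89).

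Cd52 encodes a small glycoprotein of the lymphocyte surface. It measured 20.2, 37.03, 16.9, 263 and 39.8 CPM in Lepr+ MPP, against 34.3, 55.7, 29.3, 47.2 and 46.6 CPM in Lepr- MPP. Stem cell libraries had 7.58, 5.80, 7.01, 3.72 and 9.98 CPM in Lepr+ HSC, against 5.43, 9.49, 1.73, 4.45 and 1.89 CPM in Lepr- HSC. All progenitor libraries lay above all stem cell libraries, and replicate 4 of Lepr+ MPP stood far above the others of its group. The ratio was 9.25 between Lepr- MPP and Lepr- HSC (edgeR adjusted p = 0.00969) and 11.1 between Lepr+ MPP and Lepr+ HSC. Without the high Lepr+ MPP library the log2 fold change between the Lepr+ groups was 2.07 ± 0.45 in place of 3.47 ± 0.68 (adjusted p = 0.0456). That call was lost without all 3 libraries that stand apart (2.04, edgeR adjusted p = 0.0996), without Lepr+ HSC replicate 2, 3 or 4 (0.0577 to 0.077), without any 1 of the replicate numbers 1 to 5 (0.0648 to 0.184; log2 fold change 1.92 without number 4) and in single months. The call between the Lepr- groups was lost without replicate number 3 (edgeR adjusted p = 0.0543) or 5 (0.064) and in July libraries alone (0.772).

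Replicate 4 of Lepr+ MPP also had the highest summed level of 7 plasma cell markers, 4450 CPM, where the other Lepr+ MPP libraries had 45.5 to 2810 CPM and the Lepr- MPP libraries 93.2 to 232 CPM. Only 5 of the 7 averaged over 1 CPM in Lepr+ MPP and 3 in Lepr- MPP. Ighm, whose unrearranged locus is also transcribed, was among them in both groups. Replicate 2 had the next highest sum, 2810 CPM, and a Cd52 level of 37.03 CPM, inside the range of the Lepr- MPP libraries. In the same libraries the 8 stromal markers summed to 135 to 3220 CPM in Lepr+ MPP, against 6.85 to 30 CPM in Lepr- MPP, with the highest sum in replicate 5. Any part of RNA from plasma or stromal cells in the Cd52 value was not tested.

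**Figure D2:**
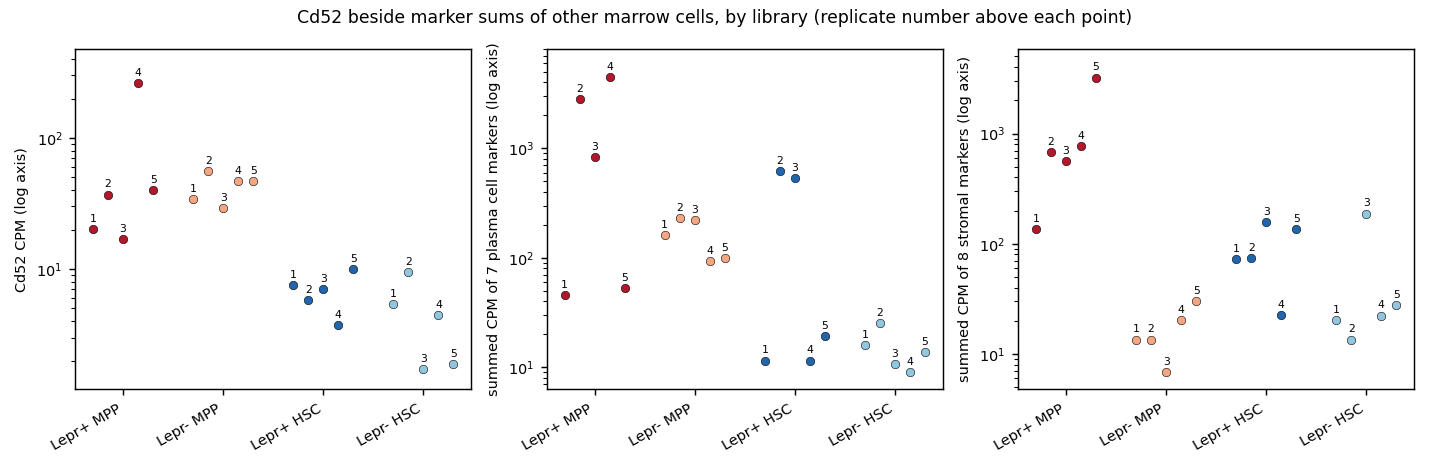
Cd52 level (left), summed level of 7 plasma cell markers (middle) and summed level of 8 stromal markers (right) in each library, in CPM on log axes, with the replicate number above each point. Replicate 4 of Lepr+ MPP has 263 CPM of Cd52 and the highest plasma cell sum, 4450 CPM, whereas the highest stromal sum, 3220 CPM, is in replicate 5.

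Of the transcription factors, Satb1, a chromatin organizer of early lymphoid cells and thymocytes, was also higher in progenitors. It measured 33.8, 20.7, 35.6, 0.438 and 28.3 CPM in Lepr+ MPP, against 70.6, 68.0, 69.5, 31.7 and 34.8 CPM in Lepr- MPP. The stem cell values were 7.66, 0.205, 7.10, 1.97 and 0.105 CPM in Lepr+ HSC, against 2.90, 2.95, 1.69, 7.11 and 7.16 CPM in Lepr- HSC. The Lepr- groups did not overlap, and 4 of 5 Lepr+ MPP libraries lay above all stem cell libraries, the exception being replicate 4. The ratio between Lepr- MPP and Lepr- HSC was 12.7 (edgeR adjusted p = 0.0398), a call that was lost in 19 of 33 settings with its direction kept. It was lost without any 1 of the 5 Lepr- HSC libraries (edgeR adjusted p 0.0694 to 0.112), and without replicate 1, 2, 3 or 5 of Lepr- MPP (0.0538 to 0.0883) or of Lepr+ MPP (0.0512 to 0.0531). Between Lepr+ MPP and Lepr+ HSC the log2 fold change was 2.78 ± 0.91 and did not pass the test (adjusted p = 0.26).

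Ikzf1 encodes Ikaros, a zinc finger factor needed for lymphoid priming and for normal lymphocyte development. It measured 158, 141, 167, 66.3 and 95.7 CPM in Lepr+ MPP, against 208, 234, 211, 152 and 156 CPM in Lepr- MPP. Stem cell libraries had 104, 72.0, 115, 86.9 and 22.5 CPM in Lepr+ HSC, against 91.2, 78.6, 123, 33.1 and 70.6 CPM in Lepr- HSC. The Lepr- MPP libraries all lay above the Lepr- HSC libraries, and the Lepr+ groups overlapped. The log2 fold change was 1.28 ± 0.37 between the Lepr- groups (edgeR adjusted p = 0.0744, 0.00812 with the replicate block, and 0.0184 without Lepr+ HSC replicate 5) and 0.65 ± 0.36 between the Lepr+ groups (adjusted p = 0.762).

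Notch1 is the receptor whose cleaved form drives T cell commitment. It measured 45.5, 68.5, 54.8, 39.8 and 56.7 CPM in Lepr+ MPP, against 73.2, 88.6, 92.4, 53.5 and 50.6 CPM in Lepr- MPP. The stem cell values were 35.3, 14.4, 28.95, 8.19 and 13.7 CPM in Lepr+ HSC, against 11.5, 6.37, 23.5, 5.39 and 14.7 CPM in Lepr- HSC. Every progenitor library lay above every stem cell library. The ratio was 5.81 between the Lepr- groups (edgeR adjusted p = 0.00127), while between the Lepr+ groups it was 2.64 and missed the threshold (adjusted p = 0.163, and 0.023 with the replicate block).

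Mef2c ran the other way. It encodes a MADS box factor that favours lymphoid over myeloid fate and also acts in megakaryocyte and platelet formation. It measured 163, 196.5, 191, 117 and 182 CPM in Lepr+ MPP, against 177.5, 203.5, 199, 126 and 177 CPM in Lepr- MPP. Stem cell libraries had 189, 199, 290.3, 187 and 138 CPM in Lepr+ HSC, against 287, 303, 522, 331 and 281 CPM in Lepr- HSC. The Lepr- HSC libraries lay above all Lepr- MPP libraries, with replicate 3 highest, while the Lepr+ HSC libraries overlapped those of each other group. The ratio between Lepr- MPP and Lepr- HSC was 0.512 (edgeR adjusted p = 0.016), a call lost in 8 of 33 alternative settings with its direction kept. It was lost without Lepr- HSC replicate 3 (edgeR adjusted p = 0.0598) and without Lepr- MPP replicate 5 (0.0531). It was also lost without replicate number 1, 2, 3 or 4 in all groups, and in June or July libraries alone. Between Lepr+ MPP and Lepr+ HSC the log2 fold change of Mef2c was -0.24 ± 0.22 (adjusted p = 0.966). Beside it, 7 megakaryocyte markers summed to 91.2 to 303 CPM in Lepr+ MPP, 104 to 225 CPM in Lepr- MPP, 503 to 1780 CPM in Lepr+ HSC and 1870 to 4760 CPM in Lepr- HSC. Their part in the Mef2c level was not tested.

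Lax1 encodes a membrane adaptor that dampens antigen receptor signalling in lymphocytes. It measured 105, 94.1, 62.6, 55.6 and 44.6 CPM in Lepr+ MPP, against 94.2, 82.5, 78.6, 52.7 and 45.9 CPM in Lepr- MPP. The stem cell values were 44.1, 39.2, 36.6, 39.8 and 49.2 CPM in Lepr+ HSC, against 21.95, 14.7, 14.2, 9.85 and 6.26 CPM in Lepr- HSC. Lepr- HSC were below the other 3 groups without overlap, and the Lepr+ HSC libraries spanned a narrow range next to the lowest progenitor libraries. The ratio was 5.27 between Lepr- MPP and Lepr- HSC (edgeR adjusted p = 0.000176), whereas the log2 fold change between Lepr+ MPP and Lepr+ HSC was 0.80 ± 0.30 (adjusted p = 0.397).

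Per kilobase of merged exons, which allows levels to be compared between genes, the order of the members differed between gates. In Lepr- MPP the mean level was highest for Flt3 (76.7 CPM per kb), Cd27 (75.5) and Dntt (66.4) and lowest for Satb1 (2.89) and Ccr9 (0.464). In Lepr+ MPP Cd27 (75.8 CPM per kb) led, followed by Cd52 (63.6, mostly from 1 library), Flt3 (41.4), Lax1 (31.4) and Ikzf1 (21.8), with Dntt at 4.72. In Lepr+ HSC Cd27 (37.8 CPM per kb) and Lax1 (18.1) came before Ikzf1 (13.9) and Mef2c (12.8). In Lepr- HSC Cd27 (25.1 CPM per kb) and Mef2c (21.9) led, with Lax1 at 5.80 and Flt3 at 3.22. Cd27 was thus first or second in all 4 groups.

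**Figure D3:**
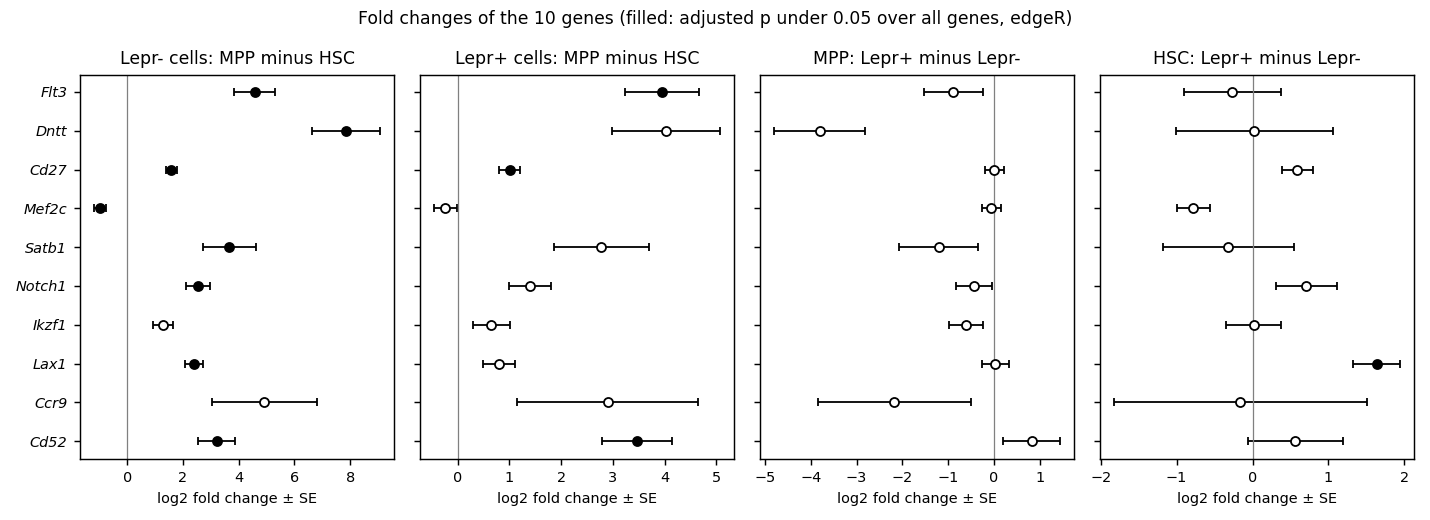
Log2 fold changes of the 10 genes with their SE (bars) in 4 comparisons from edgeR, each panel on its own axis; filled points passed an adjusted p of 0.05 over all 16509 genes. Filled points number 8 for Lepr- MPP minus Lepr- HSC, 3 for Lepr+ MPP minus Lepr+ HSC, none for Lepr+ MPP minus Lepr- MPP, and 1, Lax1, for Lepr+ HSC minus Lepr- HSC.

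Between progenitors with and without surface leptin receptor, Dntt differed past the threshold by DESeq2 but not by edgeR, and no other member did by either. Between Lepr+ MPP and Lepr- MPP, 0 of 10 members passed edgeR's test, where 0.2% of all genes did. One member, Dntt, had an unadjusted p under 0.05, where 4.41% of all genes did, and DESeq2 called it, where it called 1.31% of genes. The median log2 fold change was -0.52 over the members and 0.01 over all genes. In the 5 pairs of libraries that share a number, 2, 1, 0, 4 and 3 of the 10 members were higher in Lepr+ MPP.

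Dntt was lower in Lepr+ MPP in 5 of 5 pairs and did not overlap with Lepr- MPP, a gap in that direction that 0.454% of all genes had. The fitted log2 fold change was -3.81 ± 1.00 (edgeR adjusted p = 0.164). It was -3.72 ± 0.83 with the replicate block (adjusted p = 0.0932) and -3.79 by DESeq2 (adjusted p = 0.0321). Within pairs the log2 differences were -3.78, -3.88, -4.16, -3.98 and -2.18, the smallest being that of replicate 5. Across the 33 alternative settings the fold change stayed between -4.19 and -3.38, and edgeR called it without replicate 1 of Lepr+ HSC (adjusted p = 0.0432). In libraries of June and of July, the file dates, the log2 fold change was -3.70 and -3.89.

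Flt3 was also lower in Lepr+ MPP in each pair, with log2 differences of -0.79, -0.99, -0.83, -1 and -0.91 within pairs. The Lepr+ MPP and Lepr- MPP libraries overlapped, and the log2 fold change of -0.89 ± 0.64 did not pass the test (edgeR adjusted p = 1, and 0.914 with the replicate block). Ikzf1 and Satb1 were likewise lower in 5 of 5 pairs without passing (log2 fold changes -0.61 ± 0.36 and -1.21 ± 0.86, adjusted p = 1 for each). Notch1 was lower in 4 of 5 pairs (-0.43 ± 0.40). Cd27, Mef2c and Lax1 lay near 0, at 0.01 ± 0.20, -0.05 ± 0.22 and 0.04 ± 0.30. Ccr9 stood at -2.18 ± 1.67 with 2 pairs higher. The sign of Cd52 hung on replicate 4: the log2 fold change was 0.83 ± 0.62 with all libraries and -0.58 ± 0.44 without that Lepr+ MPP library, and Cd52 was lower in Lepr+ MPP in the other 4 pairs.

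Beside these values, Gata1, the erythroid and megakaryocyte factor, averaged 6.86 ± 5.59 CPM in Lepr+ MPP, against 60.4 ± 35.9 in Lepr- MPP (SD, n = 5 each; log2 fold change -3.14 ± 0.63, edgeR adjusted p = 0.0433). Of 8 stromal and 7 endothelial markers, 6 and 5 rose in Lepr+ MPP by the same test, Cxcl12 averaging 330 ± 211 CPM against 1.15 ± 1.12 CPM in Lepr- MPP (adjusted p = 0.0384). The 8 T cell markers summed to 4.81 to 31.3 CPM in Lepr+ MPP, against 40.5 to 72.7 CPM in Lepr- MPP. The part of such cells in the lymphoid gene levels was not tested.

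**Figure D4:**
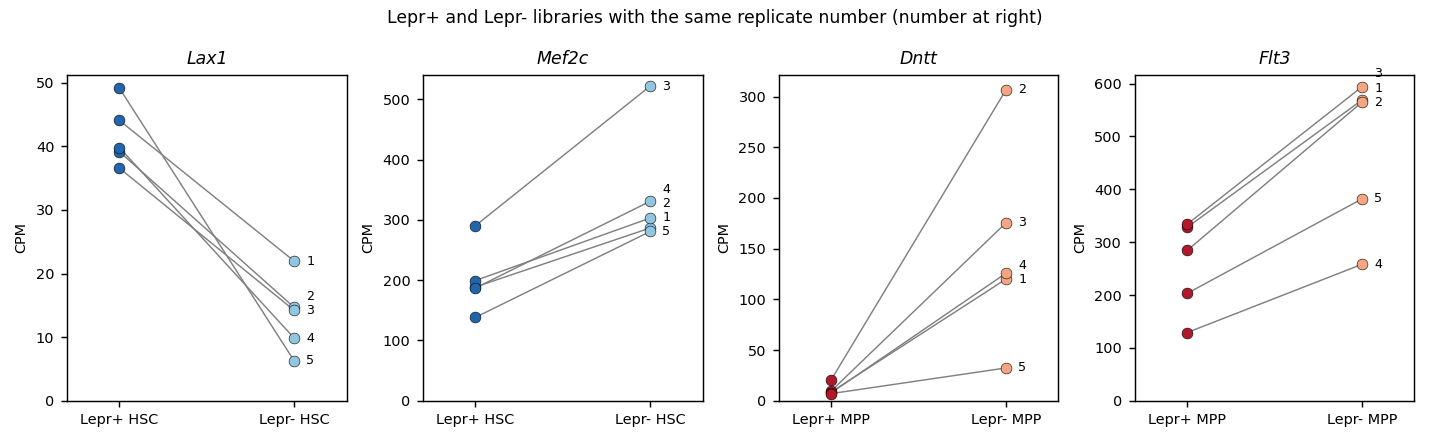
CPM of Lax1 and Mef2c in Lepr+ HSC and Lepr- HSC, and of Dntt and Flt3 in Lepr+ MPP and Lepr- MPP; lines join libraries with the same replicate number, given at the right. Lax1 is higher in Lepr+ HSC and the other 3 genes are lower in the Lepr+ libraries in all 5 pairs.

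Among stem cells, surface leptin receptor went with more Lax1 RNA. In Lepr+ HSC against Lepr- HSC, Lax1 was the 1 member called, where 0.103% of all genes were. Its log2 fold change was 1.64 ± 0.31, a ratio of 3.11 (edgeR adjusted p = 0.0365), higher in 5 of 5 pairs and with no overlap between groups, a gap that 1.62% of all genes had. With the replicate block it was 1.78 ± 0.23 (adjusted p = 0.00312). The direction was kept in all 33 alternative settings, with log2 fold changes of 1.40 to 1.89, but the call was lost in 21 of them. It was lost when any 1 of the 5 Lepr+ HSC libraries was left out (adjusted p 0.0518 to 0.0934), when Lepr- HSC replicate 2, 3, 4 or 5 was (0.0987 to 0.154), when replicate 2 or 3 of either progenitor group was (0.0542 to 0.0619), and without the 3 libraries that stand apart (0.0575). The log2 fold change was 1.62 in June libraries and 1.72 in July libraries.

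With the block, 2 members were called, where 1.02% of all genes were, and likewise 2 with DESeq2, where 1.15% were. The second was Mef2c, which was lower in Lepr+ HSC in 5 of 5 pairs (log2 fold change -0.78 ± 0.22, edgeR adjusted p = 0.215). With the replicate block its adjusted p was 0.0261 and with DESeq2 0.0479, and with the block but without the 3 libraries that stand apart 0.0544. Cd27 was higher in 5 of 5 pairs but not called (0.59 ± 0.20, adjusted p = 0.42, and 0.0713 with the block). Notch1 was higher in 4 of 5 pairs (0.71 ± 0.40, adjusted p = 0.847). The other 6 members showed no common sign over pairs, with log2 fold changes of -0.27 ± 0.65 for Flt3, 0.02 ± 1.03 for Dntt, -0.32 ± 0.87 for Satb1, 0.02 ± 0.36 for Ikzf1, -0.16 ± 1.66 for Ccr9 and 0.57 ± 0.63 for Cd52. The median was 0.02 over the members and 0.00 over all genes. In this contrast the 7 stem cell markers summed to 617 to 838 CPM in Lepr+ HSC and 285 to 539 CPM in Lepr- HSC, and their part in the Lax1 level was not tested.

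Whether the difference by receptor was unequal in the 2 gates was tested as an interaction, the Lepr+ minus Lepr- difference in HSC minus that in MPP. It called 0 of 10 members and 0% of all genes in edgeR, with 3 members and 3.2% of all genes at an unadjusted p under 0.05, and DESeq2 called 31 genes (0.16%) and none of the members. The 3 members were Lax1 (1.60 ± 0.43, adjusted p = 0.886), Dntt (3.83 ± 1.39, adjusted p = 1) and Mef2c (-0.73 ± 0.31, adjusted p = 1). The value of Dntt ran from 0.67 without Lepr+ HSC replicate 1 to 5.25 without Lepr- HSC replicate 1, and was 2.14 without replicate number 1 in all groups. A difference of Lax1 or Dntt between gates was not shown by this test. The comparisons described here share groups, since each group enters a contrast by gate and a contrast by receptor.

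Some other genes of the lymphoid programme also differed between progenitors and stem cells. Of 22 tested lymphoid transcription factors, 3 rose and 0 fell in Lepr- MPP against Lepr- HSC, where 1.51% of all genes rose and 1.22% fell, with a median log2 fold change of 0.49 beside -0.01 over all genes. They were Spi1, the myeloid and B cell factor PU.1 (1.43 ± 0.17, edgeR adjusted p = 9.84e-05), Tox, a factor of T and innate lymphoid cell development (1.65 ± 0.30, adjusted p = 0.00322), and Myb, which stem cells and early lymphocytes need (0.71 ± 0.19, adjusted p = 0.0476). In Lepr+ MPP against Lepr+ HSC, 1 of the 22 rose and 0 fell, Spi1 (0.79 ± 0.17, edgeR adjusted p = 0.0385), where 0.466% of all genes were called. Spi1 averaged 175 ± 18.7 CPM in Lepr+ MPP, 191 ± 21.9 CPM in Lepr- MPP, 101 ± 18.1 CPM in Lepr+ HSC and 71.2 ± 15.9 in Lepr- HSC (SD, n = 5 each).

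Of 16 tested lymphoid receptors and signalling genes, 3 rose and 1 fell in Lepr- MPP against Lepr- HSC, beside the same 1.51% and 1.22% of all genes, with a median log2 fold change of 0.91. In Lepr+ MPP against Lepr+ HSC, 1 of the 16 rose and 0 fell, beside 0.466% of all genes called. Among those that rose, Il2rg, the shared chain of lymphocyte cytokine receptors, had a log2 fold change of 1.31 ± 0.20 (edgeR adjusted p = 0.000765), and Jak3, the kinase bound to that chain, one of 1.00 ± 0.26 (adjusted p = 0.0436). Lat, a T cell and platelet adaptor, fell by 0.90 ± 0.19 (adjusted p = 0.0107). Il2rg averaged 82.5 ± 8.85 CPM in Lepr+ MPP, 67.6 ± 11.3 CPM in Lepr- MPP, 51.8 ± 10.3 CPM in Lepr+ HSC and 27.3 ± 7.02 in Lepr- HSC (SD, n = 5 each).

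No other gene of the Notch pathway passed the test. Of 19 tested partners, processing enzymes and targets of Notch, 0 passed edgeR's test in any of the 5 comparisons, with 2, 2, 0, 0 and 0 at an unadjusted p under 0.05 in Lepr- MPP against Lepr- HSC, Lepr+ MPP against Lepr- MPP, Lepr+ MPP against Lepr+ HSC, Lepr+ HSC against Lepr- HSC and the interaction, and 0 by DESeq2. Hes1, a Notch target, averaged 7.19 ± 4.63 CPM in Lepr+ MPP, 2.097 ± 1.29 CPM in Lepr- MPP, 6.58 ± 2.88 CPM in Lepr+ HSC and 6.03 ± 3.53 in Lepr- HSC (SD, n = 5 each). Of 8 tested genes of antigen receptor recombination and end joining, 0 passed in any comparison, with at most 1 at an unadjusted p under 0.05 and 0 by DESeq2. All 8 had a positive log2 fold change in Lepr- MPP against Lepr- HSC, with a median of 0.33, where 49.4% of all genes were above 0. In Lepr+ MPP against Lepr+ HSC 4 of the 8 were positive (median 0.01), where 51.6% of all genes were. In Lepr+ MPP against Lepr- MPP 1 was (median -0.43) and in Lepr+ HSC against Lepr- HSC 2 were (median -0.17), where 51.3% and 49.6% of all genes were. Of 12 tested ligands, partners and paralogs of the members, 0 passed in edgeR, with up to 3 at an unadjusted p under 0.05, and DESeq2 called 3 in Lepr- MPP against Lepr- HSC and 1 in Lepr+ MPP against Lepr+ HSC.

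By surface leptin receptor, none of the 22 transcription factors and 16 receptors passed edgeR's test in either gate. At an unadjusted p under 0.05, 7 factors were higher and 1 lower in Lepr+ HSC, where 6.96% of all genes passed that p, and DESeq2 and the replicate block each called 1 higher and 1 lower. The 22 factors had a median log2 fold change of 0.57 in Lepr+ HSC against Lepr- HSC and 0.04 in Lepr+ MPP against Lepr- MPP. Of the 16 receptors, 3 were higher and 1 lower in Lepr+ HSC at an unadjusted p under 0.05, DESeq2 called 1 higher and 1 lower, and none reached that p in Lepr+ MPP against Lepr- MPP. Of the factors, 3 were higher and 1 lower at that p in Lepr+ MPP, where 4.41% of all genes passed it, and DESeq2 called 1 higher.

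For 4 members, the genes whose profile over the 20 libraries lay closest were found by the root-mean-square (RMS) difference in log2 CPM after centring each gene. The 10205 candidates were tested genes with a mean of at least 5 CPM. Names of predicted or clone-based genes and of antigen receptor segments were left out. Those closest to Flt3 were Sgsm1 (RMS 1.22), Trim16 (1.22) and Clnk (1.22), where the median over all candidates was 2.80. Those of Dntt were Slc16a11 (1.79), Wfdc17 (1.86) and Flt3 itself (1.97), where the median was 3.90.

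Those of Lax1 were Pcp4l1 (0.45), Nek6 (0.46) and Pglyrp1 (0.49), where the median was 1.28, and all 3 had their lowest mean in Lepr- HSC, as Lax1 did. Nek6 averaged 62.9 ± 25.1 CPM in Lepr+ MPP, 45.1 ± 12.9 CPM in Lepr- MPP, 33.7 ± 6.38 CPM in Lepr+ HSC and 13.3 ± 8.40 in Lepr- HSC (SD, n = 5 each). Those of Notch1 were Anxa2 (0.58), St8sia4 (0.61) and Cd34 (0.61), where the median was 1.40. Cd34, a surface protein that short-term progenitors carry, averaged 857 ± 174 CPM in Lepr+ MPP, 1145 ± 204 CPM in Lepr- MPP, 215 ± 31.4 CPM in Lepr+ HSC and 192 ± 12.6 in Lepr- HSC. Profiles of this kind share the 4 groups and the libraries, and they are given as a description.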

How the data were processed

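The authors deposited 1 table of raw read-pair counts per gene for each of the 20 libraries. Per the labels' protocols, Nextera XT libraries were prepared from SMART-Seq v4 cDNA. The submitters' processing notes name STAR 2.7.1a, HTSeq 0.11.2, cutadapt 2.1, FastQC 0.11.8, DESeq2 and the build GRCm38. The counting mode is not given in the sources used here. Closing lines that name no gene were left out.

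Gene symbols and positions came from GENCODE M21, which matched 55480 of 55573 identifiers, and promoters from RefSeq (GRCm38.p6). Genes were filtered with filterByExpr (minimum count 10, minimum total 15), which left 16509, all 10 members among them. Dntt reached the filter's level in all MPP libraries but only 1 Lepr+ HSC and 2 Lepr- HSC libraries, and Ccr9 in 4 Lepr+ MPP, 3 Lepr- MPP and 1 Lepr+ HSC library. Groups were compared with edgeR 4.0.16 in R 4.3.3 (TMM, quasi-likelihood F tests, two-sided, group as the only term over all 20 libraries, Benjamini-Hochberg adjustment, threshold 0.05). The common biological coefficient of variation was 0.747. CPM are counts scaled to TMM-corrected library sizes, with the SD over 5 libraries. Without the replicate block, the spread behind a p-value is that between libraries of a group, each from a pool of 2 mice. With the block, what libraries of 1 replicate number share is taken out of that spread.

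The members, gene lists and naming rule were chosen with earlier results of these data known. All members were named, other list genes only at an adjusted p under 0.05 and up to 4 per list and contrast, apart from a few genes not reported here, and Hes1, Gata1, Cxcl12, Slamf1, Rag1, Cd8a, Lck, Cd4, Cd79b and Hlf were named after their values were seen. The design text gives 2 mice per replicate, and each replicate number carries 1 date in all 4 groups (numbers 1, 3 and 5 in June, 2 and 4 in July), so the number was read as pairing the libraries. Deviations from the group means correlated at a median of 0.264 over the 30 same-number pairs (range -0.065 to 0.562) and at -0.086 over the 120 other pairs from different groups. No replicates were near-identical, the lowest chi-square per degree of freedom between replicates of a group being 36.5. Alternatives were DESeq2 1.42.0, RLE normalization, no filter, the replicate block, single months, leaving out each library or replicate number, and leaving out the 3 libraries that stand apart, with and without the block, the last chosen after seeing the data.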

Additional observations from a re-analysis of the deposited data

Results flagged for a closer look

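Over 40 sets of 5 libraries, 10 genes in 4 groups, 6 had 1 library far from the other 4 by Dixon's test (critical ratio 0.71), and chance alone marks about 1 in 20. Cd52 in Lepr+ MPP replicate 4 was at 263 CPM, where the others had 16.9 to 39.8 CPM. Mef2c in Lepr- HSC replicate 3 was at 522 CPM, where the others had 281 to 331 CPM.

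The other 4 concern genes at low levels. Dntt in Lepr+ MPP replicate 2 was at 20.8 CPM, where the others had 7.07 to 9.73 CPM. Dntt in Lepr+ HSC replicate 1 was at 2.73 CPM, where the others had 0 to 0.315 CPM. Dntt in Lepr- HSC replicate 1 was at 2.09 CPM, where the others had 0 to 0.478 CPM. Ccr9 in Lepr+ HSC replicate 1 was at 0.632 CPM, where the others had no count, so that any count in it would have been marked. Replicate 1 thus stood apart for Dntt in both stem cell groups.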

How the results depend on the processing

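Each comparison was repeated under 33 settings. The 12 calls of members kept their sign in all of them, and of 1650 member values 92 lost and 16 gained a call, while 70 values without a call had the other sign. In what follows, counts are of genes called at an adjusted p under 0.05. In Lepr+ HSC against Lepr- HSC (17 genes, 1 member), DESeq2 called 197 genes and 2 members, the replicate block for pairing 169 and 2, no filter 0 members, June or July libraries alone 0 and 0 (1031 and 426 genes at an unadjusted p under 0.05), leaving out the 3 libraries that stand apart 8 and 0, and the block without those 3 called 143 genes. In Lepr+ MPP against Lepr- MPP (33 genes, 0 members), DESeq2 called 247 genes and 1 member, the replicate block 17 genes, either month or leaving out the 3 libraries 0 (556, 367 and 793 genes unadjusted), and the block without them 2. In Lepr- MPP against Lepr- HSC (451 genes, 8 members), DESeq2 called 879 genes, the block 1238, June 81 genes and 4 members, July 0 and 0 (798 genes and 8 members at an unadjusted p under 0.05), leaving out the 3 libraries 768 genes, and the block without them 1977. In Lepr+ MPP against Lepr+ HSC (77 genes, 3 members), DESeq2 called 371 genes and 5 members, the block 293 and 5, either month 0 and 0 (822 and 839 genes unadjusted), leaving out the 3 libraries 1 member, and the block without them 180 genes. The interaction had 0 genes, and DESeq2 called 31. Leaving out single libraries or replicate numbers gave 0 to 24, 0 to 49, 152 to 556, 6 to 97 and 0 to 0 genes in these 5 comparisons, and 0 to 1, 0 to 1, 5 to 9, 0 to 4 and 0 to 0 members. The months hold 3 and 2 replicate numbers, so these fits have fewer samples; the cause of the other changes was not tested. Low counts limit Ccr9 in every group and Dntt in stem cells.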

Other observations

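Early B cell genes outside the members stayed low or uneven. Ebf1, a B lineage factor that marrow stromal cells also express, averaged 6.01 ± 6.75 CPM in Lepr+ MPP (0.0326 to 15.5 CPM over libraries), 0.215 ± 0.215 CPM in Lepr- MPP, 1.06 ± 1.34 CPM in Lepr+ HSC and 0.169 ± 0.377 in Lepr- HSC (SD, n = 5 each). Il7r, the receptor of the cytokine on which early lymphocytes depend, averaged 0.186 ± 0.298 CPM in Lepr+ MPP, 1.79 ± 1.92 CPM in Lepr- MPP, and 0.109 ± 0.227 in Lepr+ HSC, and had no count in Lepr- HSC. Rag2, the partner of Rag1, averaged 0.0417 ± 0.0477 CPM in Lepr+ MPP, against 2.07 ± 2.54 in Lepr- MPP, with at least 1 library of each group at 0. Ighm, the heavy chain gene whose unrearranged locus is also transcribed, ranged from 0.109 to 1964 CPM in Lepr+ MPP and from 55.3 to 193 CPM in Lepr- MPP, and from 0 to 295.6 CPM in Lepr+ HSC and from 0.257 to 7.22 CPM in Lepr- HSC. These genes were chosen after their values were seen and are given as levels only.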
